A study of Arabidopsis thaliana with 6 samples.

Results

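The array block designed on the mitochondrial and plastid genomes was examined in *Arabidopsis thaliana* seedlings that lack both plastid glycolytic glyceraldehyde-3-phosphate dehydrogenase genes. Its members were the probe sets with the 150 lowest numbers of the array, a consecutive range taken by number alone, out of 22746 probe sets in all. A probe set is a group of short oligonucleotides on the array that together give 1 intensity for a transcript. The samples were whole seedlings aged 15 days, either gapcp1gapcp2 double mutants (3 biological replicates) or Col-0 wild type (3 biological replicates), raised together in long days on dilute medium. The tissue and the genotypes could not be checked by marker genes within the block, because the sources used here tie none of its probe sets to a gene, and no single gene is named for that reason.

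Plastids and mitochondria keep small genomes of their own. The plastid genome encodes core parts of the photosystems, the large subunit of Rubisco and part of the plastid ribosome and RNA polymerase, and the mitochondrial genome encodes parts of the respiratory chain. Neighbouring genes in both are often transcribed together and then cut, and levels depend strongly on RNA processing and decay, which proteins encoded in the nucleus control. Most organelle transcripts carry no stable poly(A) tail, whereas the labelling kit that the labels' protocols name starts cDNA synthesis from an oligo(dT) primer. GAPCp, the enzyme that the mutant lacks, acts in plastid glycolysis and is itself encoded in the nucleus.

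The block was bright. Of its 150 members, 71 (47.3%) lay in the brightest quartile of all probe sets, which begins at a mean log2(intensity + 16) of 8.36, and 33 lay in the dimmest. Block members made up 0.659% of all probe sets and 10 of the 100 brightest. Their median intensity was 253, 229 and 280 on the arrays of gapcp1gapcp2 replicates 1 to 3, against 294, 322 and 246 on those of wild type replicates 1 to 3. The ranges of the genotypes overlapped, with the third wild-type array below the first mutant array. All other probe sets had medians of 110 to 117 in the mutant and 112 to 115 in wild type.

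As a whole the block did not separate the genotypes. The block's share of the summed intensity was 2.63%, 2.60% and 2.95% on the mutant arrays, against 2.71%, 2.89% and 2.47% on the wild-type arrays. The mean share was 2.73% ± 0.191 in the mutant and 2.69% ± 0.210 in wild type (SD, n = 3 each), a difference well within the spread between replicates. The median log2(intensity + 16) of the block was 8.07 ± 0.14 in the mutant and 8.24 ± 0.19 in wild type (SD, n = 3 each). The mean share was thus slightly higher in the mutant and the median lower. In whole seedlings, the number of organelles or organelle-rich cells and the amount of RNA in each of them cannot be told apart. Without the 5 brightest members the mean share was 2.18% in the mutant and 2.13% in wild type.

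**Figure D1:**
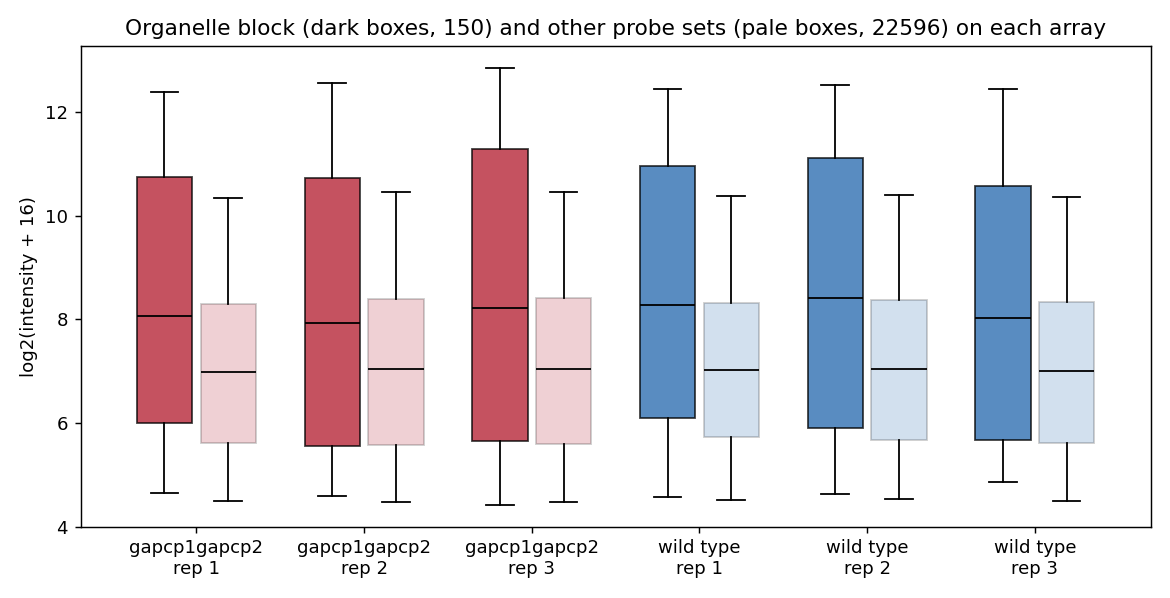
Boxes show the quartiles and median of log2(intensity + 16) on each of the 6 arrays, with whiskers at the 5th and 95th percentiles, for the 150 block members (dark) and all other probe sets (pale). The block medians lie above the others on each array, between 7.93 and 8.21 in gapcp1gapcp2 and between 8.03 and 8.40 in wild type.

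Across the members the log2 change, gapcp1gapcp2 minus wild type, had a median of -0.07, with quartiles of -0.24 and 0.17. All other probe sets had a median of -0.02, with quartiles of -0.17 and 0.14. Of the members, 64 had a change above 0 and 86 below 0, where all other probe sets had 10625 above and 11971 below. The typical size of a change, regardless of sign, was 0.20 on the log2 scale in the block and 0.16 elsewhere. A change of at least 1.5-fold occurred in 14 members (6 higher, 8 lower), or 9.33%, against 6.63% of all probe sets, and 3 members passed 2-fold. Of the 14, 1 passed the test, and it was among the last 30 numbers, whereas 77.3% of all probe sets past 1.5-fold did.

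The limma test, adjusted by the Benjamini-Hochberg method over all 22746 probe sets, called 2 of 150 members at an adjusted p under 0.05, 1 higher and 1 lower. That is 1.33% of the block, against 11% of all probe sets (5.86% higher and 5.13% lower). The count was 0 without the third mutant array, the first wild-type array or the second wild-type array. The share of all probe sets called then fell as well, to 5.26%, 7.64% and 6.25%. Without single arrays the log2 change ran between 0.60 and 0.77 for the higher call and between -0.57 and -0.46 for the lower. Without the first mutant array 13 members were called (7 higher, 6 lower), or 8.67% of the block against 10.3% of all probe sets. At an unadjusted p under 0.05, 25 members passed (7 higher, 18 lower), or 16.7%, against 26.3% of all probe sets. Mutant and wild-type arrays stood fully apart for 26 members (9 higher, 17 lower), or 17.3%, where 32.2% of all probe sets showed this (15.5% higher and 16.6% lower).

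The call above wild type was probe set 245035_at, one of the last 30 numbers, where the organelle label could not be checked and the median spread was nearer to that of the numbers just beyond the block. Its intensities were 135, 160 and 158 in the mutant, against 78.7, 84.5 and 105 in wild type. Every mutant array lay above every wild-type array, and the log2 change was 0.67 ± 0.12 SE (limma adjusted p = 0.017). The call below wild type, 244947_at, was dim, with 9.13, 11.9 and 9.99 in the mutant, against 21.7, 24.7 and 18.5 in wild type. Its log2 change of -0.51 ± 0.09 SE (limma adjusted p = 0.016) depended on the pseudocount, being -0.99 at 1 and -0.20 at 64.

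The 3 members past 2-fold did not pass, and the one with the largest change in each direction was picked out after its values were seen. Probe set 244937_at had 145, 224 and 470 in the mutant, against 69.4, 157 and 119 in wild type. Its arrays overlapped, the third mutant array stood highest, and the log2 change of 1.08 had a 95% interval from -0.01 to 2.16 (limma adjusted p = 0.19). Probe set 244983_at had 1648, 543 and 1539 in the mutant, against 2865, 2560 and 1593 in wild type. Its second mutant array was far below the other two, and the log2 change of -1.02 had a 95% interval from -2.14 to 0.11 (limma adjusted p = 0.23). Without single arrays the change of 244937_at ran between 0.64 and 1.44, and that of 244983_at between -1.29 and -0.51. The other member past 2-fold had a log2 change of 1.05 (limma adjusted p = 0.25).

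**Figure D2:**
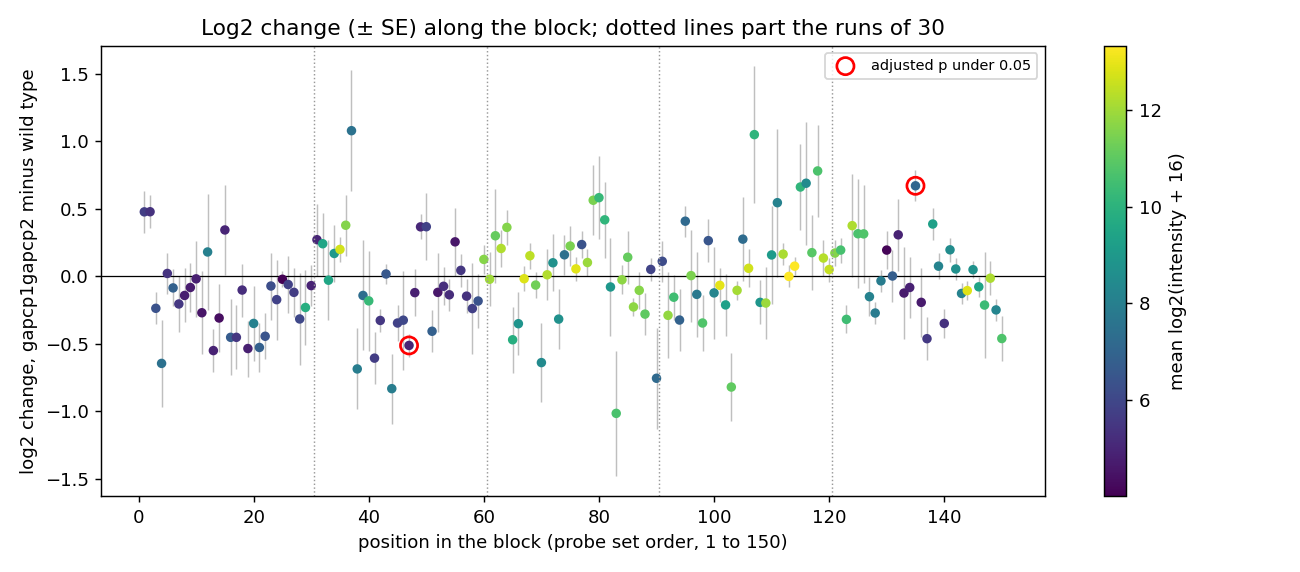
Each point is a block member, placed by its order in the block (1 to 150), with its log2 change, gapcp1gapcp2 minus wild type, and its SE as a bar. Colour gives the mean log2(intensity + 16) over the 6 arrays, red rings mark the 2 members called by limma, and dotted lines part the runs of 30. Bright members in the middle of the block scatter on both sides of 0, and 43 of the first 60 members lie below it.

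Values of bright members spread widely between replicates of the same genotype. The residual standard deviation within genotypes, on the log2 scale, had a median of 0.277 in the 71 members of the brightest quartile. In the 5616 other probe sets of that quartile it was 0.087, so the ratio of the medians was 3.19. In 44 of the 71 (62.0%) it exceeded 0.184, the 95th percentile of the other bright probe sets. These are descriptions with no test, because the members share their arrays. Within the mutant the brightest array was a median of 1.35 times the dimmest for these members, against 1.11 times for other bright probe sets, and within wild type the figures were 1.33 and 1.11.

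The spread occurred in both genotypes. Among the 71 bright members, 25 (35.2%) varied at least 1.5-fold between the 3 mutant arrays and 26 (36.6%) between the 3 wild-type arrays. For other bright probe sets these shares were 0.641% in the mutant and 0.445% in wild type. By brightness the block's median residual standard deviation was 0.262 in the dimmest quartile, where the other probe sets had 0.261. It was 0.268 in the second quartile and 0.412 in the third, where other probe sets had 0.152 and 0.104. The 17 members with a mean log2 of at least 12 had 0.116, against 0.067 in 172 other probe sets as bright.

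The precision of a log2 change followed from this spread. The median half-width of its 95% interval was 0.46 in the 71 bright members and 0.20 in other bright probe sets. Limma called 0 of the 71 after adjustment, where it called 14.2% of all probe sets in that quartile, and 6 of the 71 had an unadjusted p under 0.05, against 31.1% in the quartile. Moderation that follows brightness and resists outliers (limma with trend and robust) called 5 of them and array weights called 5, where these settings called 24.1% and 21.4% of the other probe sets as bright. The median size of a change in the 71 was 0.19 on the log2 scale, below the median half-width, although single members had narrower intervals. The within-genotype range of the more variable genotype exceeded the difference of the means in 68 of the 71 (95.8%), against 66.6% of other bright probe sets.

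**Figure D3:**
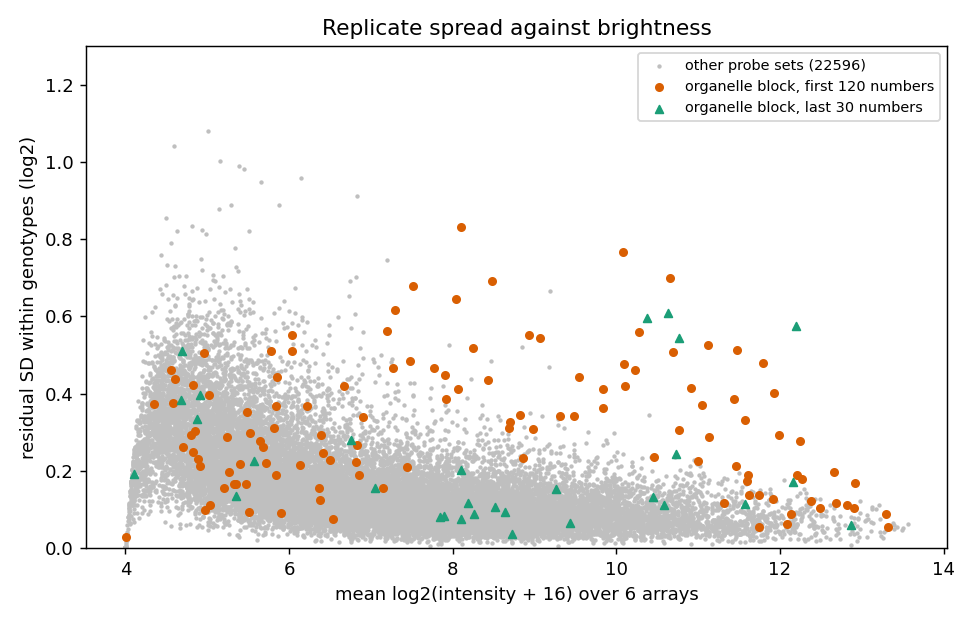
The residual standard deviation within genotypes (log2 scale) is plotted against the mean log2(intensity + 16) over the 6 arrays, for other probe sets (grey), the first 120 numbers of the block (orange circles) and the last 30 (green triangles). Above a mean of about 7 most orange circles lie over the grey cloud, and many green triangles lie within it.

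Single arrays moved many bright members together. In the mutant the third array was the highest of the 3 for 40 of the 71 bright members and the lowest for 7, and the first array was the lowest for 40. In wild type the second array was the highest for 50 and the lowest for 3, and the third array was the lowest for 43. The median deviation of the 71 from their genotype mean was -0.10, -0.02 and 0.09 on the mutant arrays, against 0.01, 0.16 and -0.12 on the wild-type arrays. For other bright probe sets the same deviations were -0.07, 0.03 and 0.03 in the mutant, against -0.02, 0.02 and -0.01 in wild type. The low first mutant array was thus shared with probe sets outside the block, where ranks of arrays were not counted. RNA quality values and scan details were not used here, and their part in these deviations was not tested.

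**Figure D4:**
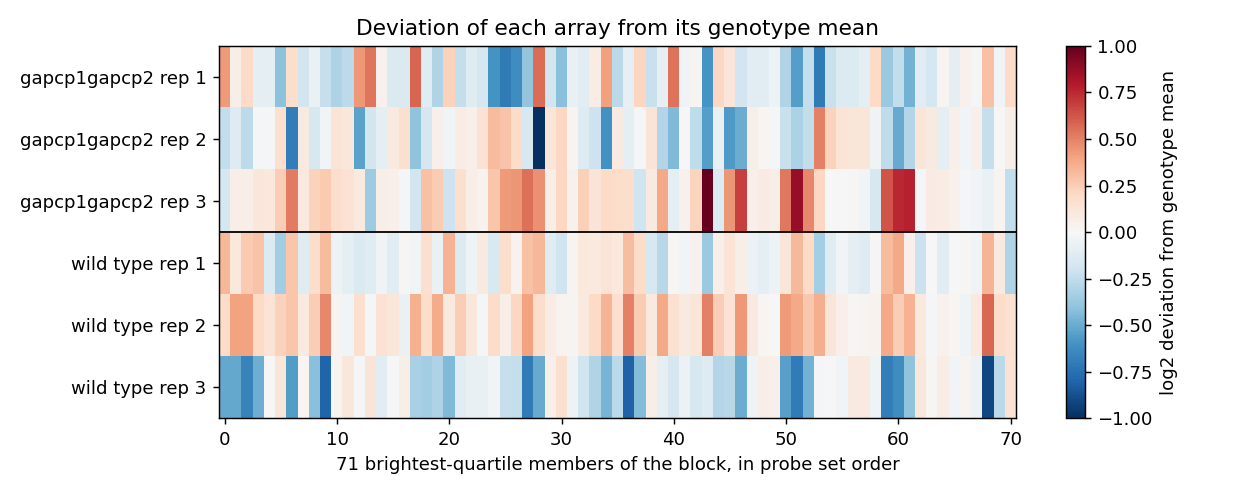
Rows are the 6 arrays (gapcp1gapcp2 above, wild type below) and columns the 71 bright members in the order of their numbers. Colour gives the log2 deviation from the member's genotype mean, cut at 1 in either direction. Wild type replicate 2 is above its genotype mean for 64 members and wild type replicate 3 for 19, and stretches of adjacent members share a colour.

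Deviations were compared between pairs of members by the distance of their numbers. Over the 6 arrays, the deviations of 55 pairs of bright members with consecutive numbers had a median Pearson correlation of 0.61, and 83.6% of these correlations were positive. For 203 pairs that were 2 to 5 numbers apart the median was 0.24, for 895 pairs 6 to 30 apart it was 0.35 and for 1332 pairs farther apart it was 0.30. Pairs share the same 6 arrays and overlap in their members, so these are descriptions. Each correlation rests on only 6 deviations, taken from the genotype means, and pairs outside the block were not compared. Whether adjacent numbers stand for adjacent genes was not tested.

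Brightness and spread changed along the number order. Of the first 30 numbers 1 was in the brightest quartile, of the second 30 there were 7, of the next 30 there were 26, then 22, and 15 in the last run. The median mean log2 was 5.60, 5.94, 11.13, 10.57 and 8.39 over these runs. The median log2 change was -0.16, -0.12, 0.03, 0.05 and -0.02, and the test called members in the second run (1 lower) and the last (1 higher).

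The first 60 numbers, mostly dim, leaned below wild type. Their log2 change was above 0 for 17 and below 0 for 43, with a median of -0.13, and 1 passed the test. In the first run the array medians were 35.3, 28.6 and 31.7 in the mutant, against 47.3, 33.2 and 27.0 in wild type, and in the second they were 57.9, 39.8 and 51.8 in the mutant, against 70.3, 46.9 and 42.2 in wild type. The first wild-type array was the highest in both runs and the genotypes overlapped. The median change of these 60 members was -0.03 without that array (25 above 0, 35 below), but -0.26 without the third wild-type array (14 above, 46 below) and -0.22 without the first mutant array (15 above, 45 below). It was -0.07 without the second mutant array, -0.21 with array weights or a pseudocount of 1, -0.06 at a pseudocount of 64, -0.07 with quantile normalisation and 0.05 for the 12 members left after the dimmest 60% of probe sets were removed. Other probe sets below the median brightness of the array leaned the same way but less, with a median change of -0.06 (4702 above 0, 6613 below). Block members below that brightness had a median of -0.12 (17 above 0, 41 below). In the dimmest quartile the other probe sets had a median of -0.07 (2206 above 0, 3448 below) and the block had -0.12 (9 above 0, 24 below). The reason for the lean was not tested.

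The last 30 numbers varied less between replicates, with a median residual standard deviation of 0.154, against 0.301, 0.301, 0.251 and 0.341 in the 4 earlier runs and 0.130, 0.121 and 0.106 in the next 3 runs of 30 beyond the block. Of the 15 bright members in that run, 5 exceeded the 95th percentile of other bright probe sets, against 39 of 56 in the first 120 numbers. The last member inside the range had 1628, 1488 and 1198 in the mutant, against 1599, 2192 and 2183 in wild type. The first probe set outside it had 573, 635 and 572 in the mutant, against 448, 502 and 482 in wild type. Within the run, numbers 245024 to 245026 had residual standard deviations of 0.574, 0.609 and 0.544. The next numbers, 245027 to 245029, had 0.202, 0.081 and 0.084, but number 245047 had 0.596. Values alone do not show which numbers of the last run were designed on an organelle genome, so the label of the block holds less firmly there. With the first 120 numbers only, 1 member was called (0 higher, 1 lower), or 0.833%, the bright members had a median residual standard deviation of 0.307, and the call on 245035_at fell outside.

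Members with the suffix that marks probes shared between transcripts (_s_at) numbered 21, and 129 had probes of a single target. The shared ones had a median log2 change of -0.16 and the others -0.02, and both calls were among the 129, which make up most of the block. Shared members were also dimmer, with a median mean log2 of 6.39 against 8.51, and most lay among the first 60 numbers. Suffix, brightness and number order cannot be told apart here. Median residual standard deviations were 0.268 in the 21 and 0.278 in the 129.

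The authors' deposited table of 274 probe sets past their filter on fold, difference and p holds 0 members of the block. It covers 1.2% of all probe sets, so 0 of 150 is close to that share. Of 20 nuclear genes listed for organelle transcription, RNA decay and organelle stress, such as the sigma factors that guide the plastid RNA polymerase and the alternative oxidases of mitochondria, 15 could be matched to 1 locus in the RefSeq table. The authors' deposited table holds 0 of these 15. No probe set could be tied to them here, and their levels are unknown.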

How the data were processed

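The block is the range of probe set numbers 244901 to 245050. RNA of 6 seedling samples was measured on 1-colour Affymetrix arrays. The authors deposited an intensity per probe set on a linear scale. GCOS is the only tool in the submitters' processing notes, with neither a version nor the scaling given in the sources used here. Of all values 1.85% were below 0. The authors' deposited comparison table holds group mean intensity, a signed fold change score and a p-value per probe set, and only its membership was used.

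Groups were taken from sample titles. The description fields speak of embryo stages and were not used. Negative intensities were raised to 0 before taking log2(intensity + 16), a scale that understates changes at low intensity. Testing used limma 3.58.1 (R 4.3.3, lmFit and eBayes, two-sided) over all 6 arrays, with no block and with adjustment over 22746 probe sets. Array medians lay between 111 and 117, so no further normalisation was applied. The number of arrays limits the precision. The limma step was run on simulated data, drawn independently for each probe set and array. Deviations that members share on an array were not simulated, so that run says nothing about them. Brightness quartiles used the mean over all 6 arrays. Probe sets to print were the called ones of at least median brightness in the brighter genotype and with non-overlapping arrays. That rule gave 245035_at, and the other 3 were chosen after their values were seen.

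The members, lists and settings were chosen with earlier results of these data known. Tables were handled with Python 3.11.15, pandas 2.3.3 and matplotlib 3.10.9. Alternatives were other scaling, filters on dim probe sets, moderation, pseudocounts, a 2-fold minimum, array weights, the replicate number as a block, leaving out each array and leaving out shared probe sets. The first 120 numbers, the edge of the block, the number gaps and the cut at a mean log2 of 12 were chosen after the data were seen. So were the single spreads given for the last run.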

Additional observations from a re-analysis of the deposited data

How the results depend on the processing

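The block's median log2 change, -0.07, was -0.11 to 0.02 without single arrays and -0.07 to 0 otherwise. Moderation, a 2-fold minimum and a replicate block cannot move it. For scale, the array medians of the block had a pooled SD within genotypes of 0.164, which is the spread of another measure. The mean share of summed intensity, mutant minus wild type, was 0.036 percentage points and ran between -0.074 and 0.135 when arrays were left out. The residual standard deviation of bright members, 0.277, was 0.198 to 0.285 without single arrays and 0.250 to 0.307 in the other alternatives, and that of other bright probe sets stayed between 0.071 and 0.090.

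The count of called members, 2, moved most. It was 4 with quantile normalisation (3 higher, 1 lower, or 2.67% of the block against 11.9% of all probe sets). It was also 4 with median centring over all probe sets or over those outside the block (2 higher, 2 lower, or 2.67% against 11.8%). It was 10 without the dimmest 40% of probe sets (4 higher, 6 lower, or 10% of the 100 members left, against 22.3% of all), 9 without the dimmest 60% (2 higher, 7 lower, or 10.7% of 84, against 24.8%), 10 with trend and robust moderation (4 higher, 6 lower, or 6.67% against 15.4%), 15 with array weights (6 higher, 9 lower, or 10% against 16.6%), 0 at a 2-fold minimum (against 1.71%) and 1 in the first 120 numbers. Leaving out 1 array gave 0 to 13. Bright members called, 0, became 5 and 6 under the 40% and 60% filters, 5 with trend and robust moderation, 5 with array weights and 1 at a pseudocount of 64, and 0 to 8 without single arrays. The causes of the changes under moderation and weights were not tested. In all 19 settings compared by adjusted p alone, the share of the block called was below that of all probe sets.

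With the replicate number as a replicate block, 5 members were called (1 higher, 4 lower), or 3.33% against 7.42% of all probe sets. Deviations of same-numbered arrays correlated at 0.234, 0.0186 and 0.0174 over all probe sets, so replicate numbers were not treated as pairs. Both calls were lost without mutant replicate 3, wild type replicate 1 or wild type replicate 2, and 245035_at also without mutant replicate 2 (adjusted p = 0.076). The call on 244947_at was lost with trend and robust moderation (adjusted p = 0.086). Folds of dim members depend on the pseudocount.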

Other observations

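Array deviations within the block correlated across the genotypes in some combinations of arrays. Over the 150 members, the deviations of mutant replicate 2 and wild type replicate 3 correlated at 0.52, those of mutant replicate 3 and wild type replicate 2 at 0.50, and those of mutant replicate 1 and wild type replicate 1 at 0.34. The other 6 combinations lay between -0.36 and -0.04. Over all other probe sets the same 3 combinations gave 0.16, 0.13 and 0.23. Among the bright members alone they gave 0.52, 0.49 and 0.22, against 0.19, 0.29 and 0.23 for other bright probe sets. At like brightness the third combination was therefore about the same in the block as elsewhere. Deviations sum to 0 within a genotype, and members are not independent replicates, so these values are descriptions with no test. The labels give no order of extraction or hybridisation to set beside them.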
